A study of Mus musculus with 8 samples.

Results

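The type I interferon response genes described here are 45 of the 56980 genes in the deposited table, taken by symbol from a list of interferon-stimulated genes. Rigi stands in the table under its older symbol, Ddx58, and was counted once. All 45 had enough counts to be tested. They were measured in macrophages grown from mouse bone marrow of strain C57/Bl6, in 4 cultures with a knockout of Grn (GrnKO), the gene of the secreted and lysosomal protein progranulin, and in 4 wild-type cultures (WT). All cultures of both genotypes received the vehicle DMSO and 50 ng/mL of the growth factor M-CSF, which drives marrow cells towards macrophages. Marrow from several mice was pooled for every replicate, differentiated to day 7, frozen, thawed and cultured for 3 days, so the spread between replicates is that between pooled cultures. The age and sex of the mice are not given in the sources used here, and neither is the allele of the knockout.

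Type I interferons are secreted proteins that signal through the receptor chains Ifnar1 and Ifnar2 and the kinases Jak1 and Tyk2. The kinases activate transcription factors such as Stat2, which joins Irf9 in a complex that binds interferon-stimulated response elements in the promoters of target genes. The targets include sensors of viral nucleic acids, enzymes that degrade or block foreign RNA, membrane proteins that restrict viruses, and regulators such as Irf7 and Usp18 that raise or dampen the response. Macrophages are known to keep a low level of this response without infection.

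The estimated counts of a library summed to between 5828178 and 7944863 in GrnKO and between 7413222 and 8768772 in WT cultures. Levels below are in CPM, the counts of a gene relative to the TMM-scaled size of its library. Reads were tags from the 3′ ends of transcripts, and a CPM is therefore not divided by transcript length. Grn itself stood at 14.4, 12.9, 13.5 and 12.9 CPM in GrnKO replicates 1 to 4, against 1431, 1492, 1694 and 2019 CPM in WT replicates 1 to 4, and every library matched its label. The 9 macrophage markers, among them Csf1r and Adgre1, were all detected, with a summed level of 6364 to 8065 CPM in GrnKO and 5553 to 9527 CPM in WT libraries. Of the 9, 8 had a log2 fold change of GrnKO over WT below 0 (median -0.34), against 54.2% of all genes tested. None was called at the threshold given below (edgeR adjusted p under 0.05). Without WT replicate 1 the median was -0.46 and 3 of the 9 were called lower, against 3.34% of all genes tested then. Markers of T cells, a type these cultures should lack, summed to at most 4.71 CPM in GrnKO and 2.88 CPM in WT libraries, with Trac at 0 in all 8 libraries. Among WT libraries, replicate 1 stood apart on the interferon genes and had the lowest sum of macrophage markers, 5553 CPM against 8368 to 9527 CPM in WT replicates 2 to 4. Results that rest on it are given with and without it.

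Many of these genes shared a short promoter element. Genes on a list of interferon-stimulated genes are likely to hold it, so its share describes the list and not these libraries. Promoters of the RefSeq annotation on GRCm38.p6, from 250 bases before to 50 bases after the transcript start, were found for 34 of the 45 genes. The core of the interferon-stimulated response element, GAAANNGAAA on one strand or TTTCNNTTTC on the other, with overlapping matches counted separately, was present in 21 of these 34 promoters (61.8%). Among the 27025 genes with a promoter in that annotation, 3.99% held it. A looser core, GAAANNGAA, was in 64.7% of the promoters of these genes and in 9.76% of all. The sequences below, read 5′ to 3′ along the strand of each gene, show the core in capitals in genes whose values are described later. Isg15 is shown for its 3 overlapping matches, and Slfn8 and Slfn5 because their groups did not overlap. The pairs Ifit3 with Ifit3b and Oas1a with Oas1g are shown because their members are alike.
Isg15: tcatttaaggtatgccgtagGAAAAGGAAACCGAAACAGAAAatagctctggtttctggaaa
Ifit1: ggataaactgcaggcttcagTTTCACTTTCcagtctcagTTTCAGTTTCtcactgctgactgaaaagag
Ifit3: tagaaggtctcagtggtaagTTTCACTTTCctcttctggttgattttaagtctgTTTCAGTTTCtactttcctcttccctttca
Ifit3b: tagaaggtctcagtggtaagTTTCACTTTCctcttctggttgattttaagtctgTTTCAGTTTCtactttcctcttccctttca
Oas1a: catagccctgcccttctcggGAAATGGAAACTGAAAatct
Oas1g: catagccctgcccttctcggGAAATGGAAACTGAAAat
Bst2: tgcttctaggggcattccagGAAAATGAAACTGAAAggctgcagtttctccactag
Stat2: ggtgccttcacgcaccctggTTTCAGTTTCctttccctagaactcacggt
Slfn8: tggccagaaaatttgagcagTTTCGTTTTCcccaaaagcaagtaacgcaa
Slfn5: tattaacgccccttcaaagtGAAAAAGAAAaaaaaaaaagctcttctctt

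On GRCm38.p6 the Isg15 stretch lies at chr4:156200855-156200916 (minus strand), with its first match 78 bases before the transcript start. Ifit1 is shown at chr19:34640765-34640833 (plus strand), Ifit3 at chr19:34583353-34583436 (plus strand) and Ifit3b at chr19:34607749-34607832 (plus strand). The 84 bases shown for Ifit3 and Ifit3b were identical at 84 positions. Oas1a is shown at chr5:120907526-120907565 (minus strand) and Oas1g at chr5:120887614-120887651 (minus strand), and their 38 shared bases were identical at 38 positions. The Bst2 stretch is at chr8:71537567-71537622 (minus strand) and that of Stat2 at chr10:128270256-128270305 (plus strand). The called gene Slfn8 is shown at chr11:83020829-83020878 (minus strand), with its match 48 bases before the start, and Slfn5 at chr11:82951927-82951976 (plus strand). The median log2 fold change of GrnKO over WT was -0.42 among the 21 genes with the core and -0.45 among the 13 without it. These medians were close, and the genes without the core in this window included Irf7, Irf9, Ifit2, Oasl2 and Xaf1. No promoter was found in that annotation for Ifi27l2a, Oas2 and Parp14, which were called lower like Slfn8, so neither median includes them. Rtp4 and Zbp1 were missing from it as well.

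GrnKO macrophages had lower transcripts of 4 of the 45 interferon response genes, and none was called higher. The small mitochondrial protein gene Ifi27l2a, the schlafen Slfn8, the ADP-ribosyltransferase Parp14 and the oligoadenylate synthetase Oas2 fell. The 4 called genes are 8.89% of the 45, against 1.46% of the 12186 genes tested that were called lower and 2.79% that were called higher (edgeR quasi-likelihood test, Benjamini-Hochberg adjusted p under 0.05 over all genes tested). Of the 45 genes, 42 had a log2 fold change below 0 (93.3%), against 54.2% of all genes tested. The median was -0.45 over the 45 genes and -0.03 over all genes tested. At an unadjusted p under 0.05, 17 of the 45 were lower in GrnKO (37.8%) and none was higher, against 8.79% lower and 8.85% higher among all genes tested. The shares over all genes tested are also the background for the counts by role group and list below.

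The difference was smaller without WT replicate 1. Without that library 32 of the 45 genes lay below 0 (71.1%), against 51.8% of all genes tested then, and the median was -0.15. In that comparison Ifi27l2a, Slfn8 and Parp14 were called lower and none was called higher, while 3.34% of all genes tested were called lower and 4.3% higher. Bulk libraries cannot tell apart fewer cells with a response from less RNA per cell.

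**Figure D1:**
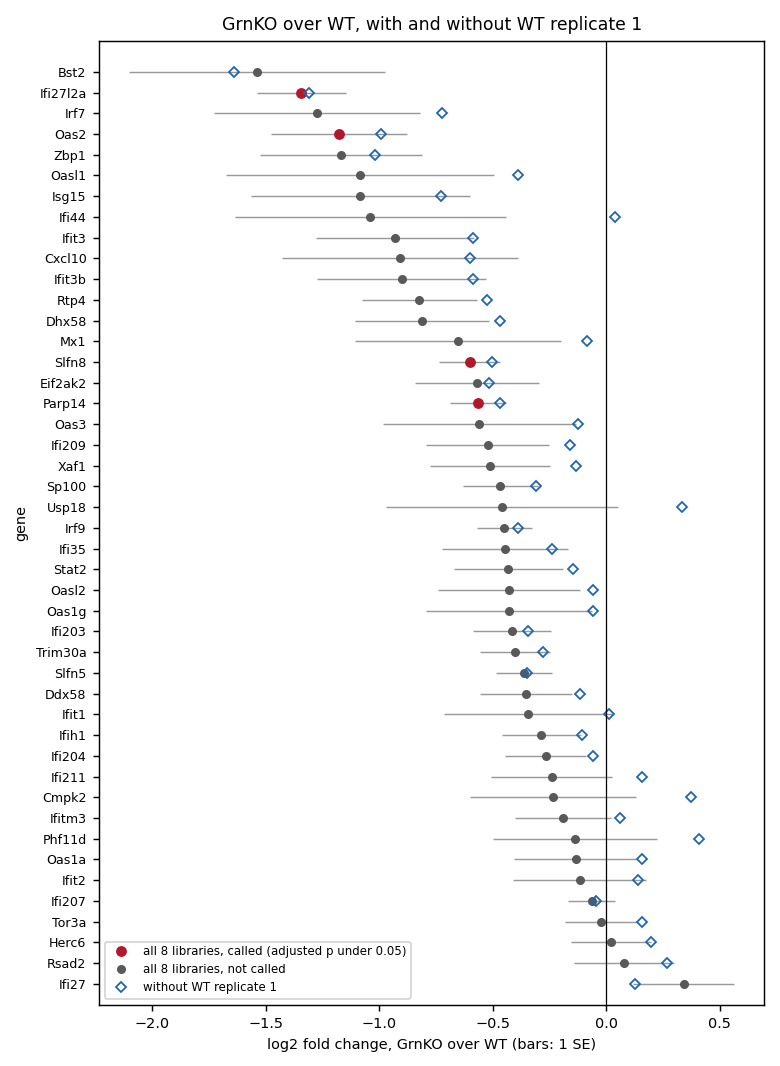
Each row is a gene and the horizontal axis is the log2 fold change of GrnKO over WT. Filled circles use all 8 libraries with bars of 1 SE (red where called, grey where not) and open diamonds leave out WT replicate 1. The median lies at -0.45 with all libraries and at -0.15 without WT replicate 1, and Ifi27l2a (-1.34 and -1.31) and Slfn5 (-0.36 and -0.35) move little between them.

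The mean level of the 45 genes varied more among WT cultures than between the genotypes. The mean of log2(CPM + 1) over the 45 genes was 5.11, 4.68, 4.68 and 5.23 in GrnKO replicates 1 to 4, against 5.98, 5.47, 5.04 and 4.95 in WT replicates 1 to 4. The groups overlapped, since GrnKO replicates 1 and 4 lay above WT replicates 3 and 4. The group means were 4.92 ± 0.29 in GrnKO and 5.36 ± 0.47 in WT libraries (SD, n = 4 each), a difference of -0.44. Without WT replicate 1 the difference was -0.24.

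**Figure D2:**
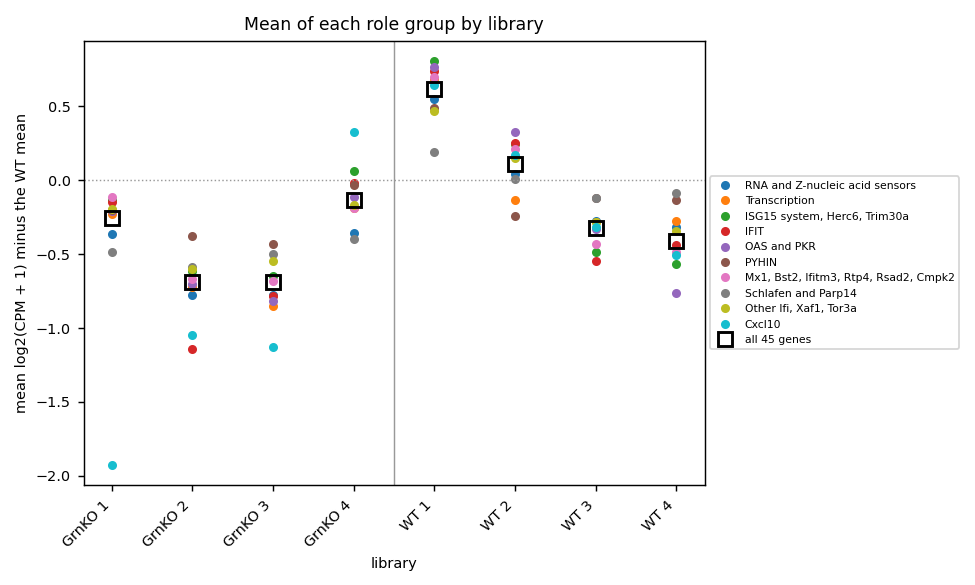
The horizontal axis gives the 8 libraries and the vertical axis the mean log2(CPM + 1) of a role group minus its WT mean. Coloured points are role groups and open squares the mean of all 45 genes, which is highest in WT replicate 1 and lowest in GrnKO replicates 2 and 3.

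WT replicate 1 held the highest level of the 8 libraries in 37 of the 45 genes (82.2%), against 19.6% of all genes tested. It exceeded the mean of WT replicates 2 to 4 in 44 of the 45, by a median of 0.83 on the log2 scale, and by more than 1 in 16 of them. Over all genes tested that median was 0.01. The exception was Ifi27, which encodes a mitochondrial protein related to Ifi27l2a. Ifi27 had 143, 127, 146 and 135 CPM in GrnKO replicates 1 to 4, against 56.1, 120.5, 119.7 and 138 CPM in WT replicates 1 to 4. Its level in WT replicate 1 was the lowest of all libraries. Among GrnKO cultures, replicate 4 was highest in 28 genes and replicate 1 in 15, while replicate 3 was lowest in 23 and replicate 2 in 19.

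**Figure D3:**
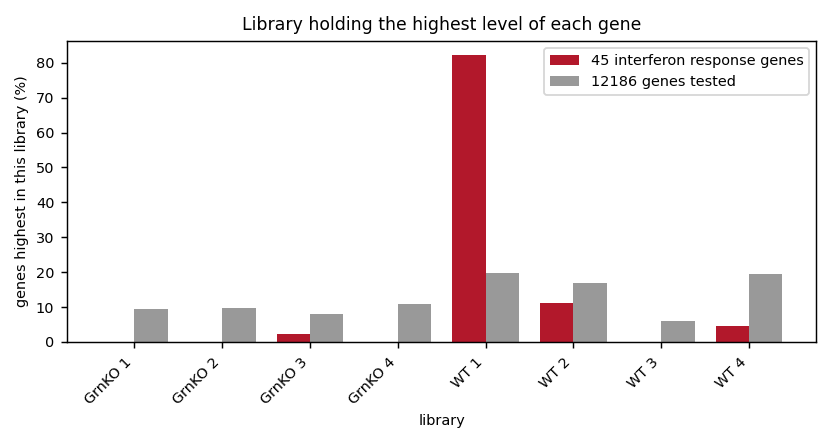
Bars give the percentage of genes whose highest CPM of the 8 libraries was in the library on the horizontal axis, in red for the 45 interferon response genes and in grey for the 12186 genes tested. WT replicate 1 reaches 82.2% of the interferon genes and 19.6% of all genes.

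The spread between WT replicates was wide for these genes. The median SD of log2(CPM + 1) over the 45 genes was 0.30 in GrnKO and 0.55 in WT libraries, against 0.18 in GrnKO and 0.26 in WT libraries over all genes tested. It was 0.29 among WT replicates 2 to 4. An SD above 0.5 was found for 10 of the 45 genes (22.2%) in GrnKO and for 26 (57.8%) in WT libraries. Over all genes tested that share was 3.23% in GrnKO and 13.0% in WT libraries.

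**Figure D4:**
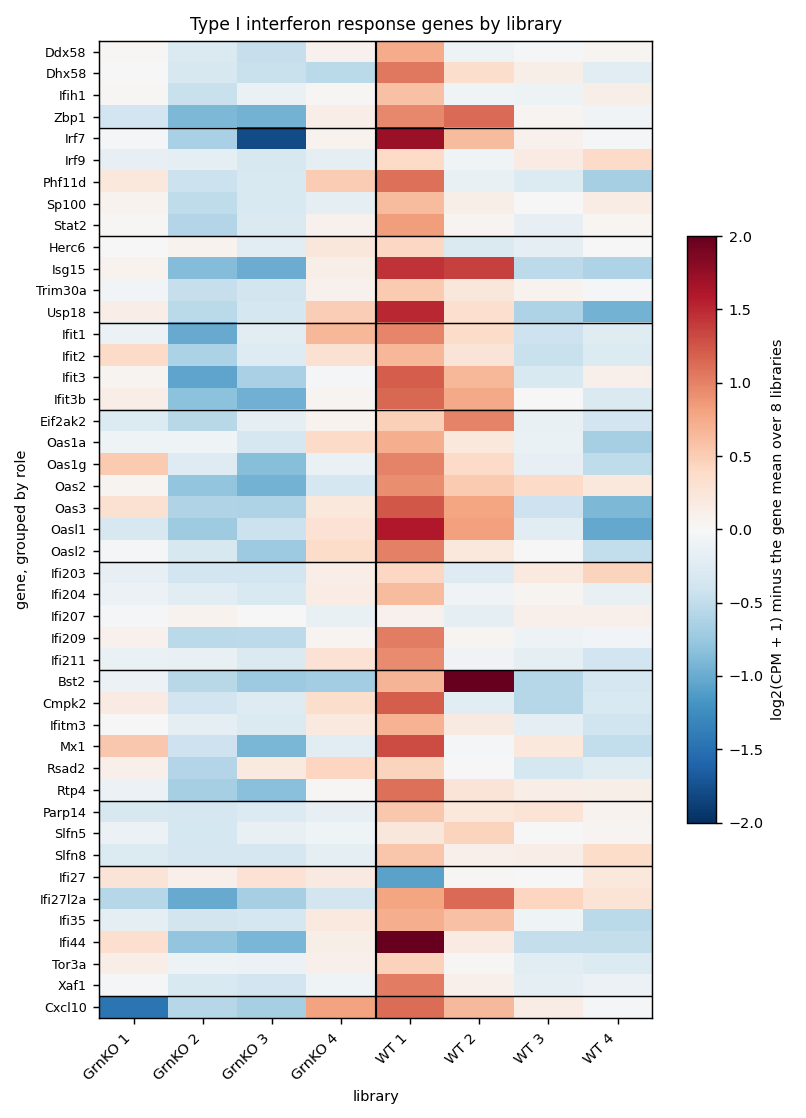
Rows are the 45 genes grouped by role, columns the 8 libraries, and colour is log2(CPM + 1) minus the mean of the gene over the libraries, with the scale ending at -2 and 2. The column of WT replicate 1 is red in nearly all rows, with Ifi27 the blue exception, and GrnKO replicates 2 and 3 are blue in most.

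Sensors of nucleic acids were the first role group. The RNA helicases Ifih1 and Ddx58 detect double-stranded viral RNA, Dhx58 modulates both, and Zbp1 binds left-handed nucleic acids and can start cell death. edgeR called none of these 4 genes, and all 4 had a log2 fold change below 0, with an unadjusted p under 0.05 for 2 of them. Zbp1 had 6.53, 4.25, 4.10 and 9.78 CPM in GrnKO replicates 1 to 4, against 18.1, 20.4, 9.16 and 8.28 CPM in WT replicates 1 to 4. GrnKO replicates 1 to 3 lay below every WT library, and GrnKO replicate 4 lay among them. Its log2 fold change was -1.17 ± 0.36 (SE; edgeR adjusted p = 0.102). The values for the others were -0.81 ± 0.30 for Dhx58, -0.35 ± 0.20 for Ddx58 and -0.29 ± 0.18 for Ifih1, with edgeR adjusted p of 0.168 to 0.435. DESeq2 called Zbp1 lower (DESeq2 adjusted p = 0.0256).

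Of the 5 transcription regulators, edgeR called none, while 3 were lower at an unadjusted p under 0.05 and DESeq2 called Irf9. Irf9, the DNA-binding subunit of the interferon-activated complex, had 86.8, 86.1, 78.3 and 85.3 CPM in GrnKO replicates 1 to 4, against 128, 93.6, 109.9 and 127 CPM in WT replicates 1 to 4. All GrnKO libraries lay below all WT libraries, with a gap between 86.8 CPM in GrnKO replicate 1 and 93.6 CPM in WT replicate 2. The log2 fold change was -0.45 ± 0.12 and missed the threshold (edgeR adjusted p = 0.0688; DESeq2 adjusted p = 0.0188). Irf7, which amplifies interferon production, had 19.1, 12.2, 5.02 and 20.8 CPM in GrnKO replicates 1 to 4, against 67.3, 31.0, 21.1 and 19.1 CPM in WT replicates 1 to 4. WT replicate 1 was far above the other libraries, and GrnKO replicates 1 and 4 reached the level of WT replicates 3 and 4. Irf7 had a log2 fold change of -1.27 ± 0.45 with all libraries (edgeR adjusted p = 0.16) and of -0.72 without WT replicate 1.

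Stat2, the partner of Irf9, stood at 23.6, 15.0, 18.7 and 24.6 CPM in GrnKO replicates 1 to 4, against 42.3, 24.0, 20.4 and 23.9 CPM in WT replicates 1 to 4. WT replicate 1 was far above the rest, and the other WT libraries overlapped with those of GrnKO. The log2 fold change was -0.43 ± 0.24 (edgeR adjusted p = 0.383). The nuclear body protein gene Sp100 (-0.47 ± 0.16) and Phf11d (-0.14 ± 0.36) were not called either (edgeR adjusted p = 0.152 and 0.894), and without WT replicate 1 Phf11d was at 0.41.

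**Figure D5:**
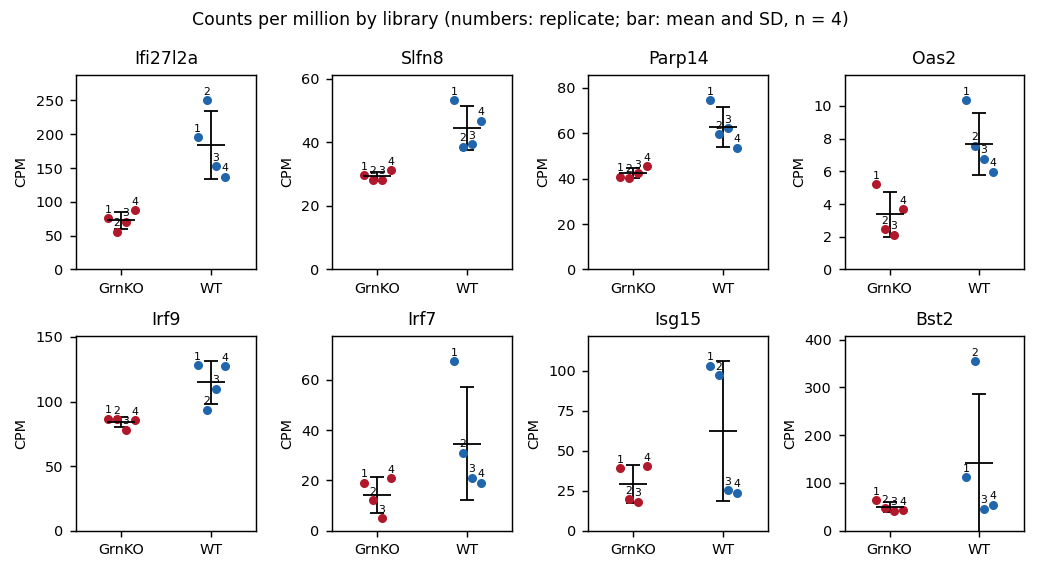
Each panel gives the CPM of a gene by library, with GrnKO in red and WT in blue, numbers for the replicate, and the mean and SD as black bars (n = 4 each). The groups do not overlap for Ifi27l2a, Slfn8, Parp14, Oas2 and Irf9, and they overlap for Irf7, Isg15 and Bst2, where 1 or 2 WT libraries are high.

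The ISG15 system and ubiquitin ligases formed the next group of 4 genes, of which neither edgeR nor DESeq2 called any and 2 were lower at an unadjusted p under 0.05. Isg15 encodes a ubiquitin-like modifier, Usp18 removes it and restrains the receptor, and Herc6 attaches it in the mouse. Isg15 had 39.0, 19.8, 18.1 and 40.4 CPM in GrnKO replicates 1 to 4, against 103, 97.0, 25.3 and 23.7 CPM in WT replicates 1 to 4. WT replicates 1 and 2 were high, whereas WT replicates 3 and 4 lay among the GrnKO libraries. The log2 fold change of Isg15 was -1.08 ± 0.48 (edgeR adjusted p = 0.269). Usp18 had 9.35, 5.48, 6.38 and 12.3 CPM in GrnKO replicates 1 to 4, against 26.1, 10.9, 5.14 and 3.93 CPM in WT replicates 1 to 4. Only WT replicate 1 stood above all GrnKO libraries, and WT replicates 3 and 4 were below every one of them. Its log2 fold change was -0.46 ± 0.51 with all libraries and turned to 0.34 without WT replicate 1, with no call in either case (edgeR adjusted p = 0.70 and 0.651).

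Trim30a, a tripartite motif protein that dampens inflammatory signalling in the mouse, was among the more abundant members, at 209.8, 159, 170.5 and 232 CPM in GrnKO replicates 1 to 4, against 316, 257, 229 and 216 CPM in WT replicates 1 to 4. GrnKO replicate 4 exceeded WT replicates 3 and 4. It was not called (-0.40 ± 0.15, edgeR adjusted p = 0.194). Herc6 had 24.9, 26.4, 21.3 and 29.2 CPM in GrnKO replicates 1 to 4, against 33.5, 20.3, 21.7 and 24.7 CPM in WT replicates 1 to 4. The libraries of both genotypes were interleaved. Its log2 fold change was 0.02 ± 0.18 (edgeR adjusted p = 0.967), which changed sign when other scaling was used.

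The IFIT proteins bind foreign RNA ends and block its translation. Neither edgeR nor DESeq2 called any of the 4, and 2 were lower at an unadjusted p under 0.05. Ifit3 averaged 12.2 ± 4.53 CPM in GrnKO and 23.3 ± 11.2 CPM in WT libraries, Ifit3b 7.74 ± 3.36 CPM in GrnKO and 14.5 ± 6.96 CPM in WT libraries and Ifit1 18.7 ± 9.24 CPM in GrnKO and 23.9 ± 11.4 CPM in WT libraries (SD, n = 4 each). WT replicate 1 was the highest library for these 3 genes and for Ifit2. The log2 fold changes were -0.93 ± 0.35 for Ifit3, -0.90 ± 0.37 for Ifit3b, -0.35 ± 0.37 for Ifit1 and -0.12 ± 0.29 for Ifit2, with edgeR adjusted p of 0.177 to 0.887. Without WT replicate 1 they were -0.59, -0.59, 0.01 and 0.14 in the same order. The estimated counts of Ifit3 and Ifit3b were not whole numbers in any of the 8 libraries, so reads were shared out between transcripts and the values of these 2 genes are uncertain.

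Oligoadenylate synthetases make the messenger that activates RNase L, and Eif2ak2 encodes PKR, which stops translation. Of the 7 genes of this group, Oas2 fell and 6 were not called, all with a log2 fold change below 0. Oas2 had 5.19, 2.48, 2.13 and 3.68 CPM in GrnKO replicates 1 to 4, against 10.4, 7.57, 6.77 and 5.97 CPM in WT replicates 1 to 4. All GrnKO libraries lay below all WT libraries. The log2 fold change was -1.18 ± 0.30 (edgeR adjusted p = 0.0498), just inside the threshold. Median-of-ratios scaling put it just outside (edgeR adjusted p = 0.0502), and with 1 library left out it was called only without WT replicate 4 or GrnKO replicate 1 (edgeR adjusted p up to 0.159). Eif2ak2 averaged 29.6 ± 5.45 CPM in GrnKO and 44.0 ± 19.6 CPM in WT libraries (SD, n = 4 each), with a log2 fold change of -0.57 ± 0.27 (edgeR adjusted p = 0.305). Oas3 (-0.56 ± 0.43), Oasl1 (-1.08 ± 0.59), Oasl2 (-0.43 ± 0.31), Oas1g (-0.43 ± 0.37) and Oas1a (-0.13 ± 0.27) had edgeR adjusted p of 0.374 to 0.855, and Oas1a turned to 0.16 without WT replicate 1. Oas1a and Oas1g are near-identical and their estimated counts were never whole, so their split is uncertain.

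The PYHIN family encodes proteins that bind DNA or regulate transcription. Neither edgeR nor DESeq2 called any of its 5 members, 1 was lower at an unadjusted p under 0.05, and the log2 fold changes had a median of -0.27. They were -0.52 ± 0.27 for Ifi209, -0.27 ± 0.18 for Ifi204, -0.24 ± 0.27 for Ifi211 and -0.06 ± 0.11 for Ifi207 (edgeR adjusted p of 0.346 to 0.815), and Ifi211 turned to 0.16 without WT replicate 1. Ifi207 had 192, 207, 197 and 179 CPM in GrnKO replicates 1 to 4, against 210.3, 174, 213 and 213 CPM in WT replicates 1 to 4. It differed little between libraries apart from a lower value in WT replicate 2. Ifi203 had 127, 109.7, 109 and 157 CPM in GrnKO replicates 1 to 4, against 190.5, 119.5, 164 and 196 CPM in WT replicates 1 to 4. WT replicate 2 lay within the GrnKO range, and the log2 fold change was -0.42 ± 0.17 (edgeR adjusted p = 0.233). The genes of this family lie in a cluster of similar copies, and their estimated counts were fractional in every library, so reads shared between them may have been divided.

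Proteins that act at membranes, on viral RNA or on nucleotides followed, and edgeR called none of the 6 genes, of which 2 were lower at an unadjusted p under 0.05 and DESeq2 called Rtp4. Bst2 encodes tetherin, which holds budding virus at the cell surface and is also known as a marker of plasmacytoid dendritic cells. Bst2 had 64.1, 47.2, 41.6 and 42.5 CPM in GrnKO replicates 1 to 4, against 112, 355, 46.4 and 54.7 CPM in WT replicates 1 to 4. WT replicate 2 was several times above every other library, WT replicate 1 was the next highest, and WT replicates 3 and 4 lay within the GrnKO range. The log2 fold change of -1.54 ± 0.56 was the largest of the 45 genes in size and was not called (edgeR adjusted p = 0.175). Without WT replicate 2 it was -0.54. The plasmacytoid dendritic cell marker Siglech stood at 0.297, 0.354, 0.760 and 0.381 CPM in GrnKO replicates 1 to 4, against 0.109, 0.721, 0.125 and 1.08 CPM in WT replicates 1 to 4. The 7 markers listed for that cell type, which leave out Bst2, summed to 205.6 to 328.5 CPM in GrnKO libraries and to 198, 254.3, 380.1 and 632.2 CPM in WT replicates 1 to 4. WT replicate 2 was not the highest in that sum, nearly all of which came from the marker Tcf4. Cox6a2 averaged 2.57 CPM in GrnKO and 2.21 CPM in WT libraries. Ccr9, Ly6d and Pacsin1 averaged less, and the marker Klk1 was at 0 in all 8 libraries. The cell source of Bst2 was not tested.

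Rtp4, a chaperone that binds viral RNA, had 176, 119.6, 106 and 193 CPM in GrnKO replicates 1 to 4, against 409.8, 228, 208 and 206 CPM in WT replicates 1 to 4. The groups did not overlap, and WT replicate 1 was well above the other WT libraries. Rtp4 was not called (-0.82 ± 0.25, edgeR adjusted p = 0.104), and its log2 fold change was -0.52 without WT replicate 1. Ifitm3, which blocks fusion of viruses in endosomes, had the highest 3′ tag level of the 45 genes, at 391, 345, 319 and 449 CPM in GrnKO replicates 1 to 4, against 632, 443, 342 and 298 CPM in WT replicates 1 to 4. GrnKO replicate 4 exceeded all WT libraries but replicate 1. Its log2 fold change was -0.19 ± 0.21 (edgeR adjusted p = 0.697).

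Rsad2 encodes viperin, which makes a chain-terminating nucleotide, and Cmpk2 lies beside it and supplies its substrate. Rsad2 had 128, 78.9, 136 and 160.1 CPM in GrnKO replicates 1 to 4, against 162, 120.0, 93.6 and 101 CPM in WT replicates 1 to 4. The libraries of both genotypes were interleaved, with a log2 fold change of 0.08 ± 0.22 (edgeR adjusted p = 0.9). Cmpk2 (-0.23 ± 0.37) and the dynamin-like GTPase Mx1 (-0.65 ± 0.45) were not called (edgeR adjusted p = 0.806 and 0.5), and Cmpk2 turned to 0.37 without WT replicate 1.

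The groups did not overlap for Slfn8, Parp14 or Slfn5, and their GrnKO libraries lay close together. Slfn8, a schlafen with a helicase-like domain, had 29.7, 28.3, 28.3 and 31.2 CPM in GrnKO replicates 1 to 4, against 53.3, 38.7, 39.4 and 46.8 CPM in WT replicates 1 to 4. The highest GrnKO library, replicate 4, was below the lowest WT library, replicate 2. Slfn8 had a log2 fold change of -0.60 ± 0.13 (edgeR adjusted p = 0.0262), and of -0.50 without WT replicate 1. Parp14, which adds ADP-ribose to proteins and shapes cytokine responses, had 41.0, 40.5, 42.4 and 45.5 CPM in GrnKO replicates 1 to 4, against 74.7, 59.7, 62.3 and 53.7 CPM in WT replicates 1 to 4. WT replicate 4 was the nearest to the GrnKO range. The log2 fold change of Parp14 was -0.57 ± 0.12 (edgeR adjusted p = 0.0258) and -0.47 without WT replicate 1.

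Both calls rested on the full number of GrnKO libraries. Slfn8 was not called without any one of the 4 GrnKO libraries (edgeR adjusted p up to 0.101), nor Parp14 without any one GrnKO library or WT replicate 3 (edgeR adjusted p up to 0.10). Slfn5, an abundant schlafen, had 205, 174, 202 and 210.4 CPM in GrnKO replicates 1 to 4, against 260.4, 305, 221 and 232 CPM in WT replicates 1 to 4. Its groups did not overlap either, with a log2 fold change of -0.36 ± 0.12 (edgeR adjusted p = 0.139). The estimated counts of Slfn8 and Slfn5 were not whole in any library.

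Ifi27l2a was the only one of the 45 genes called without each library in turn. It had 76.0, 55.9, 70.8 and 87.5 CPM in GrnKO replicates 1 to 4, against 196, 251, 153 and 137 CPM in WT replicates 1 to 4. The highest GrnKO library, replicate 4, lay below the lowest WT library, replicate 4, and WT replicate 2 rather than replicate 1 was the highest. The means were 72.5 ± 13.1 CPM in GrnKO and 184 ± 50.9 CPM in WT libraries (SD, n = 4 each), and the log2 fold change was -1.34 ± 0.20, which is 2.54-fold lower in GrnKO (edgeR adjusted p = 0.00265). Leaving out a library gave log2 fold changes of -1.46 to -1.16 and an edgeR adjusted p of at most 0.016. The estimated counts of Ifi27l2a were whole numbers in all 8 libraries.

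The remaining members of the Ifi group were not called. The interferon-induced genes Ifi44 (-1.04 ± 0.60), Xaf1 (-0.51 ± 0.27), which acts in cell death, Ifi35 (-0.45 ± 0.28) and the torsin-family ATPase gene Tor3a (-0.02 ± 0.16) had edgeR adjusted p of 0.346 to 0.965. Tor3a had 131, 110.4, 109 and 128 CPM in GrnKO replicates 1 to 4, against 164, 122, 102 and 98.1 CPM in WT replicates 1 to 4, with WT replicate 1 highest and WT replicates 3 and 4 lowest. Ifi44 had 10.1, 4.07, 3.65 and 8.51 CPM in GrnKO replicates 1 to 4, against 34.8, 8.77, 5.27 and 5.29 CPM in WT replicates 1 to 4. WT replicate 1 was the only WT library above all GrnKO libraries, and without it the log2 fold change of Ifi44 was 0.04. Ifi27 had the largest positive log2 fold change of the 45 genes, 0.34 ± 0.22, and was not called (edgeR adjusted p = 0.465). The chemokine Cxcl10, which attracts T cells, had 0.890, 2.48, 2.28 and 8.0 CPM in GrnKO replicates 1 to 4, against 10.2, 7.09, 4.77 and 4.07 CPM in WT replicates 1 to 4. GrnKO replicate 4 lay among the WT libraries, and the log2 fold change was -0.91 ± 0.52 (edgeR adjusted p = 0.399).

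In all, 7 of the 45 genes had groups that did not overlap, with GrnKO lower each time (15.6%), against 5.08% of all genes tested (12.0% in either direction). They were Ifi27l2a, Slfn8, Parp14, Oas2, Irf9, Slfn5 and Rtp4. None of the 45 was separated with GrnKO higher, against 6.91% of all genes tested.

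Transcripts of the interferons themselves were at the limit of detection. The 21 interferon genes looked for, Ifnb1 and the Ifna genes among them, held 7 counts in all 8 libraries together, with 0, 0, 3 and 0 in GrnKO replicates 1 to 4 and 1, 2, 0 and 1 in WT replicates 1 to 4. A count of 0 allows a level of up to 0.53 CPM in GrnKO and 0.41 CPM in WT libraries (3 counts per library, covering counting error only). Ifnb1 had 1 count, in GrnKO replicate 3, and no difference was detectable at this depth.

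Of 9 receptor and signalling genes upstream, neither edgeR nor DESeq2 called any, 1 was lower at an unadjusted p under 0.05, and the log2 fold changes had a median of -0.07. Ifnar1 averaged 21.8 ± 2.14 CPM in GrnKO and 24.4 ± 6.35 CPM in WT libraries and Ifnar2 137 ± 14.3 CPM in GrnKO and 138 ± 15.1 CPM in WT libraries (SD, n = 4 each; -0.16 ± 0.19 and -0.01 ± 0.12, edgeR adjusted p = 0.705 and 0.975). The interferon gamma receptor chain Ifngr1 had a log2 fold change of -0.57 ± 0.21 (edgeR adjusted p = 0.175) and was called lower without WT replicate 1, its lowest WT library (edgeR adjusted p = 0.00811).

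Of 22 tested genes that lead to interferon production, edgeR called none, 1 was higher and 2 were lower at an unadjusted p under 0.05, and the median log2 fold change was -0.01. DESeq2 called none of them either. The cytosolic DNA sensor Cgas (-0.35 ± 0.25), its partner Sting1 (-0.24 ± 0.14) and the transcription factor Irf3 (0.01 ± 0.14) had edgeR adjusted p of 0.409 to 0.987. The smallest p in that list belonged to the adaptor Myd88 (-0.36 ± 0.12, edgeR adjusted p = 0.139) and to Irf5 (-0.35 ± 0.12, edgeR adjusted p = 0.153). Of 19 genes that restrain the response, Samhd1, which degrades nucleotides needed by viruses, fell and edgeR did not call the other 18 (median -0.13). Over all genes tested 1.46% fell. At an unadjusted p under 0.05, 1 of the 19 was higher and 5 were lower, against 8.85% and 8.79% of all genes tested. The groups of 4 did not overlap, with GrnKO lower, against 5.08% of all genes tested. DESeq2 called Samhd1 and Ptpn6 lower and none higher, against 2.7% lower and 4.4% higher among all genes tested. Samhd1 had 218, 171, 179.5 and 171 CPM in GrnKO replicates 1 to 4, against 244, 239, 251 and 275 CPM in WT replicates 1 to 4. The groups did not overlap, and the log2 fold change was -0.45 ± 0.11 (edgeR adjusted p = 0.0449), and when a library was left out it was called only without WT replicate 1 or GrnKO replicate 1 (edgeR adjusted p up to 0.159).

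Of 56 tested interferon-stimulated genes outside the 45, 5 fell (8.93%), 51 were not called and none rose. Over all genes tested 1.46% fell and 2.79% rose. Of the 56, 53 had a log2 fold change below 0 (94.6%), against 54.2% of all genes tested. Their median was -0.38 (-0.23 without WT replicate 1). This list, like the 45 genes and the other lists, was chosen with earlier results of these data known. Its shares therefore describe the list and are not independent of those results. DESeq2 called 9 of the list lower and none higher, against 2.7% of all genes tested that it called lower and 4.4% higher. The cytidine deaminase Apobec3, which edits viral DNA, had 37.7, 33.4, 40.3 and 36.5 CPM in GrnKO replicates 1 to 4, against 59.1, 58.5, 56.8 and 65.3 CPM in WT replicates 1 to 4. The groups did not overlap and WT replicate 1 did not stand out. Its log2 fold change was -0.70 ± 0.11 (edgeR adjusted p = 0.00417). Ly6e, a membrane protein that affects viral entry, had 182, 146, 138 and 165 CPM in GrnKO replicates 1 to 4, against 464, 289.5, 252 and 299 CPM in WT replicates 1 to 4. All GrnKO libraries lay below all WT libraries, and the log2 fold change was -1.05 ± 0.18 (edgeR adjusted p = 0.00691). The chemokine Ccl12 (-1.18 ± 0.22), the predicted gene Gm4951 (-1.91 ± 0.30) and Epsti1 (-0.54 ± 0.13) fell as well (edgeR adjusted p = 0.0109, 0.00417 and 0.0355). Apobec3, Ly6e, Ccl12 and Gm4951 were called without each library in turn, and Epsti1 was called only without WT replicate 1 or 4 (edgeR adjusted p up to 0.135).

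Of 19 tested genes linked mainly to interferon gamma, immunity-related GTPases among them, 2 fell and none rose (median -0.49). Over all genes tested 1.46% fell and 2.79% rose. At an unadjusted p under 0.05, 1 was higher and 10 were lower, against 8.85% higher and 8.79% lower among all genes tested. DESeq2 called 7 of the list lower and none higher, against the same 2.7% and 4.4% of all genes tested. Iigp1 had 3.56, 3.36, 3.65 and 4.57 CPM in GrnKO replicates 1 to 4, against 29.6, 15.4, 9.28 and 7.60 CPM in WT replicates 1 to 4. The level was highest in WT replicate 1, and the GrnKO libraries lay close together. Irgm2 averaged 52.5 ± 9.71 CPM in GrnKO and 89.4 ± 16.9 CPM in WT libraries (SD, n = 4 each). The groups of both genes did not overlap, and the log2 fold changes of Iigp1 and Irgm2 were -2.03 ± 0.40 and -0.77 ± 0.17 (edgeR adjusted p = 0.0151 and 0.0252). Iigp1 was not called without GrnKO replicate 1, 2 or 3 (edgeR adjusted p up to 0.0648), nor Irgm2 without WT replicate 2 or 3 or GrnKO replicate 2, 3 or 4 (edgeR adjusted p up to 0.0907).

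Some other measures differed between libraries, and only part of them moved with the interferon genes. Markers of neutrophils summed to 23.3, 34.7, 20.8 and 17.3 CPM in GrnKO replicates 1 to 4, against 155.9, 88.2, 78.5 and 50.3 CPM in WT replicates 1 to 4. All GrnKO sums were below all WT sums, and WT replicate 1 was the highest here too. Among GrnKO libraries, by contrast, the sum was lowest in replicate 4, where the interferon mean was highest. Of the 10 neutrophil markers, 4 were tested and 3 fell, against 1.46% of all genes tested. The defining marker Ly6g held at most 2 counts in any library. The 6 monocyte markers summed to 13.5 to 23.3 CPM in GrnKO and 60.6 to 66.2 CPM in WT libraries, of which 3 were tested and Ccr2, a chemokine receptor, fell. The B cell gene Ighm was at 28.6, 24.4, 35.4 and 19.3 CPM in GrnKO replicates 1 to 4, against 4.69, 42.0, 46.7 and 64.6 CPM in WT replicates 1 to 4. The lowest library was WT replicate 1. The 6 B cell markers together summed to 19.9 to 36.3 CPM in GrnKO libraries and to 7.31 CPM in WT replicate 1 and 44.6 to 65.4 CPM in the other WT libraries. Depth had the same order as the interferon mean among WT libraries, replicate 1 being the deepest and replicate 4 the shallowest. Among GrnKO libraries replicate 4 was the deepest and replicate 1 the next, which was also their order in the interferon mean. GrnKO replicates 2 and 3, the lowest in that mean, were the shallowest. RNA integrity numbers were 9.9 or 10 in all 8. The part of these measures in the interferon values was not tested.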

How the data were processed

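Libraries of 3′ mRNA tags with unique molecular identifiers were made from 4 GrnKO and 4 WT macrophage cultures, per the labels' protocols. The authors deposited estimated counts per gene, made with Salmon on GRCm39 per the submitters' processing notes; the sources used here do not give its version or filters. A share of 36.4% of the estimated counts above 0 was not whole (tolerance 1e-06). The authors also deposited log2 CPM, used only as an alternative, and a gene table whose symbols chose the genes. The deposited sample sheet was not used.

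Estimated counts were rounded to whole numbers. Of 56980 genes, 12186 passed filterByExpr and were tested with edgeR 4.0.16 in R 4.3.3 (TMM, robust dispersions, quasi-likelihood F test, GrnKO over WT, no block). A gene was called where its adjusted p (Benjamini-Hochberg, over all genes tested) was under 0.05. The standard error (SE) is the log2 fold change over the root of its F statistic. CPM were computed from rounded counts and TMM-scaled library totals. Means over genes used a pseudocount of 1. For any pair of libraries of 1 genotype, chi-square per degree of freedom was at least 3.02, so no library repeated another. The fit was tested on simulated data. Genes were named by a rule: those called, those with separated groups, the 5 most negative and the 5 most positive log2 fold changes at a mean of 5 CPM or more, the 6 most abundant, and landmark regulators; and, of each list, called genes or the 2 of smallest p. Further genes named by role are given as values, and some genes are not reported here. The 45 genes, the lists and the rule were chosen with earlier results of these data known. Alternatives were other scaling factors, 2 other filters, DESeq2 1.42.0, limma 3.58.1 (voom, and trend on the deposited log2 values), the replicate number as a block, and leaving out each library. Promoter sequences came from RefSeq on GRCm38.p6, matched by symbol; this build differs from the authors', so no deposited value was placed on it.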

Additional observations from a re-analysis of the deposited data

Results flagged for a closer look

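For each of the 45 genes and the mean over them, the 4 libraries of either genotype were examined for a library that stood far from the rest by Dixon's criterion, which chance meets in about 1 of 20 groups. Of 92 sets of 4 values, 8 met it, and none of these was in GrnKO libraries.

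WT replicate 1 was the high library in 7 of the 8, and it is the library in which 37 of the 45 genes had their highest level. Rtp4 stood there at 409.8 CPM, with the next WT library at 227.7 CPM, a gap of 0.893 of the range. Ifi211 stood at 114.4 CPM and the next WT library at 55.7 CPM (0.846). For Ddx58 the values were 85.6 and 53.3 CPM (0.844), for Ifi209 70.5 and 35.2 CPM (0.905), for Cmpk2 59.4 and 21.5 CPM (0.885), for Stat2 42.3 and 24.0 CPM (0.836) and for Ifi44 34.8 and 8.77 CPM (0.881). Ifi207 in WT replicate 2 was low, at 173.8 CPM with the nearest WT library at 210.3 CPM, a gap of 0.928 of the range.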

How the results depend on the processing

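Leaving out 1 library at a time gave 267 to 942 called genes in all, against 518, and 1 to 5 of the 45 genes called lower, against 4. It gave 4 to 13 calls over the pathway lists, against 8, a median log2 fold change of the 45 genes of -0.62 to -0.15 and a group difference of the mean of -0.58 to -0.24. No alternative called any of the 45 higher. With no filter on low counts there were 918 called genes, 12 of the 45 and 18 pathway genes, and with DESeq2 865, 7 and 18; DESeq2 called 2.7% of all genes tested lower. Scaling by library totals, which moved the median of all genes to -0.10, gave 13 pathway genes. The cause of these shifts was not tested. With these 3 settings Irf9 was called. Median-of-ratios factors left Oas2 just outside the threshold (edgeR adjusted p = 0.0502), and limma-voom did so for Iigp1 (limma adjusted p = 0.0577).

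The replicate number as a block gave 220 called genes, 1 of the 45 (Ifi27l2a) and 4 pathway genes. Deviations of same-numbered libraries from their group means had correlations of -0.08, -0.17, 0.18 and -0.44 for numbers 1 to 4. The labels give no block, and whether same-numbered cultures were handled together was not tested.

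Some signs turned. Tor3a turned to 0.003 with limma-voom and 0.005 with the block, and ranged from -0.108 to 0.158 without 1 library. Herc6 turned to -0.053 by library totals and -0.015 by limma on the deposited values, with -0.068 to 0.197 without 1 library. Irf3 turned to -0.066 by library totals, -0.004 unfiltered and -0.043 by limma on the deposited values, with -0.064 to 0.058 without 1 library. Without 1 library, the ranges of 10 more of the 45 genes crossed 0, turning positive without WT replicate 1 in all but Rsad2. They were -1.311 to 0.041 for Ifi44, -0.734 to 0.335 for Usp18, -0.718 to 0.013 for Ifit1, -0.432 to 0.373 for Cmpk2, -0.383 to 0.157 for Ifi211, -0.338 to 0.41 for Phf11d, -0.328 to 0.059 for Ifitm3, -0.324 to 0.156 for Oas1a, -0.273 to 0.141 for Ifit2 and -0.058 to 0.267 for Rsad2. That of Ifnar2 was -0.084 to 0.043. Depth limits the weakest members, since Oas2, Oasl1 and Cxcl10 averaged under 5 CPM in GrnKO libraries.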
